A study of Mus musculus with 11 samples.

Results

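The livers of mice kept on ordinary chow were set against a universal mouse reference RNA on 4 two-colour arrays, 1 mouse to an array. These 4 arrays, the control arrays of a series of 11, were all those that the labels call control. Each array holds 17280 rows for 13406 gene symbols. After each array was centred on its median and rows of the same symbol were averaged, 3834 genes with a value on at least 3 of the 4 arrays remained. A value on any array of the series, apart from high-fat array 4, which was left out as described below, was held by 7188 genes. Of these 3834 genes, 2826 had a value on all 4 arrays.

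The mice were C57/BL/6J animals, 9 in the control group per the labels, of which 4 have an array here. Their age is not given in the sources used here. They ate chow with 6.5% fat, 49% carbohydrate, 23% protein and 3.5 kcal/g for 10 weeks and were not fasted. The high-fat group, with 3 arrays used here, ate a diet of 42.16% fat over the same weeks, and the fasted group, with 3 arrays, ate that diet and lost food for the last 48 h. From each liver 10 µg of total RNA was labelled with Cy5, and the reference with Cy3, per the labels.

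Hepatocytes make up most of the liver's mass and secrete most plasma proteins, from albumin to the clotting factors and apolipoproteins. They also break down amino acids, make bile acids, store and release glucose, and oxidise and conjugate drugs and steroids. The reference is a commercial pool of RNA from mouse cell lines grown in culture. A ratio above 0 means more liver than reference signal for that gene, relative to the middle gene of the array, and not a change in any mouse.

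The values are log ratios, taken here as log2. Neither the log base nor the numerator channel is stated in the labels or the table. Liver was taken as the numerator because, read that way, all 18 hepatocyte markers with a value on at least 3 control arrays had a mean above 0. That direction therefore rests on these genes and is not a test of them. The reference is the same RNA on every array, so its own spread is left out, and all 4 livers carried Cy5, so a dye effect on a gene cannot be told apart from liver content. In bulk liver, fewer cells of a type and less RNA per cell cannot be told apart. Signal intensities are not used here, so the number of arrays limits the precision.

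Rows filled per control array numbered 3864 to 5567, and 7826 of the 13406 symbols had a value on none of the 4 arrays. The rule that left rows empty is not given in the sources used here, so an empty row says nothing about expression. Correlations between control arrays over genes lay between 0.80 and 0.89, a description across genes that share the reference channel. Array 2 stood apart. It had the most filled rows and the widest spread, with a scaled median absolute deviation of 0.77 against 0.64 to 0.74. Results that lean on it are given with and without it.

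Liver and reference differed at most of the measured genes. In limma's moderated test of the mean against 0, 2235 of 3834 genes passed at a Benjamini-Hochberg adjusted p under 0.05, a background of 58.3%. Of these, 1152 were higher in liver, 30% of the genes tested, and 1083 were lower, 28.2%. The balance depends on the zero point: with the deposited, uncentred values the same test called 1583 higher and 506 lower, or 75.8% higher against 51.5%. That is a shift of the median gene from 0.00 to 0.27, and every level below is relative to the median gene.

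The high side reached further than the low side. At least 2-fold higher were 404 genes, or 10.5%, and at least 2-fold lower were 192 genes, or 5.01%. Above 3 on the log2 scale stood 9 genes, while 8 lay below -2. The highest mean was 4.79 and the lowest -2.81. Among genes with 4 values the SD over arrays had a median of 0.22, and the smallest mean that passed was 0.26 in size.

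**Figure D1:**
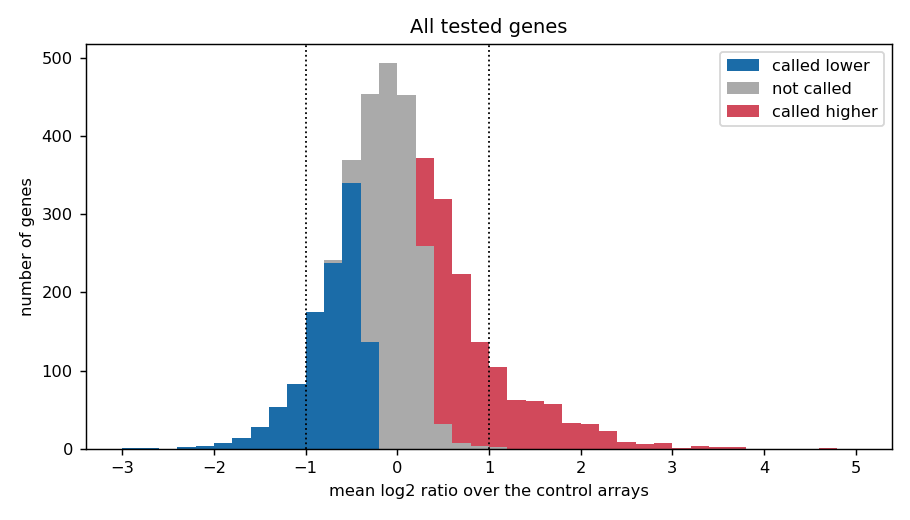
Number of tested genes (vertical axis) by mean log2 ratio of control liver over reference (horizontal axis, array median at 0), stacked by call at an adjusted p under 0.05; dotted lines mark 2-fold. The right tail extends to 4.79 and the left tail to -2.81.

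Hepatocyte markers lay far from the median gene. On the array were 23 markers of that cell type, of which 18 could be tested. Of these, 17, or 94.4%, were higher in liver, against 30% of all genes tested, and 0 were lower. The median log2 ratio was 2.18 against 0.00 for all genes tested. Since the direction of the ratio was taken from these markers, their side of 0 is no check of the labelled tissue. Arg1 and Fgg had no value on any control array, and Asgr2, G6pc and Hnf4a had values on 2 arrays only.

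The promoters of a few leading genes are shown as a description. Each window below holds the 250 bases before the RefSeq start in GRCm38.p6, on the gene's own strand. Capitals mark matches on either strand. The letters searched were TATAAA, a core promoter element; GTTAAT, the core of the motif of the liver factor HNF1; CAAAGTCCA, a motif of the liver factor HNF4; CCAAT, the site of NF-Y; and GGCGGG, the GC box. No searched motif contains another. Alb, Apoa1 and Cyp3a11 are shown as hepatocyte genes high in liver, and Mcm10 and Cdc20 as replication and division genes low in liver.
Alb (chr5:90460620-90460869, plus strand): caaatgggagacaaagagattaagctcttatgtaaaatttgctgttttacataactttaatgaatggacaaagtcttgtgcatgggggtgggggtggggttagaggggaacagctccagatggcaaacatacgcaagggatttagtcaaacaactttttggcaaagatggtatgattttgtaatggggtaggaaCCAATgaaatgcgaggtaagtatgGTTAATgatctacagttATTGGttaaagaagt
Apoa1 (chr9:46228380-46228629, plus strand): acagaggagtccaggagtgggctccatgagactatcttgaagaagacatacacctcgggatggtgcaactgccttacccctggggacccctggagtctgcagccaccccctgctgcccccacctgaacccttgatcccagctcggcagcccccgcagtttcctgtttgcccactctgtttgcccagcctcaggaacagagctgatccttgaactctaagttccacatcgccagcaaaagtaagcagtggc
Cyp3a11 (chr5:145879855-145880104, minus strand): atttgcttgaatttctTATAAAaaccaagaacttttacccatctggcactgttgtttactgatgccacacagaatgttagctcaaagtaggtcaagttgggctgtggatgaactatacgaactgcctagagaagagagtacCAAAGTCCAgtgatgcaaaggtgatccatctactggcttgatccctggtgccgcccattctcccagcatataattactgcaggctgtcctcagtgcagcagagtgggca
Mcm10 (chr2:5012792-5013041, minus strand): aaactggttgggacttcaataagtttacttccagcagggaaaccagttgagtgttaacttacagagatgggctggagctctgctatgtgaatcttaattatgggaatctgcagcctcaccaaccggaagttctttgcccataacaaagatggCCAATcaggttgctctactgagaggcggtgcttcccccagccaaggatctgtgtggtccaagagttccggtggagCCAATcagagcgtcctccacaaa
Cdc20 (chr4:118437344-118437593, minus strand): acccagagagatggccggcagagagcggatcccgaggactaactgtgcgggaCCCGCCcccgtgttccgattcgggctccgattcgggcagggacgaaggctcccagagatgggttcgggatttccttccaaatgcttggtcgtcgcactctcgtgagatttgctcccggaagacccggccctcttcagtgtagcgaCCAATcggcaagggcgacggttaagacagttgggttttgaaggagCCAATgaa

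In the Alb window the HNF1 core begins 32 bases before the start, and CCAAT matches begin 56 and, on the other strand, 15 bases before it. The Cyp3a11 window holds the HNF4 motif at 109 bases and a TATAAA far upstream at 234 bases. Both Mcm10 and Cdc20 carry a pair of CCAAT matches, at 98 and 23 bases and at 53 and 8 bases, and Cdc20 also carries a GC box. Apoa1 has no match to these letters. The windows also differ in CG dinucleotides: Alb has 2, Apoa1 4, Cyp3a11 2, Mcm10 4 and Cdc20 21.

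The same count was made for all genes, as a description. Each symbol was counted once: a motif was scored if any promoter of the symbol held it, and CG dinucleotides were averaged over its promoters. Of the 3411 tested symbols, 2723 matched a promoter in the table, with a median of 13 CG dinucleotides per window. TATAAA was held by 14.3% of all 27025 symbols in the promoter table and 11.6% of the tested genes. It was held by 17.6% of the 307 genes at least 2-fold higher and 9.46% of the 148 at least 2-fold lower that had a promoter. GTTAAT was held by 7.49% of all symbols, 5.95% of tested genes, 9.12% of the higher genes and 3.38% of the lower. CAAAGTCCA was rare, at 0.451% of all symbols, 0.551% of tested genes, 1.30% of the higher and 0.676% of the lower. CCAAT varied little, with 37.5% of all symbols, 40.3% of tested genes, 43.3% of the higher and 37.8% of the lower. The GC box was held by 35.1% of all symbols, 54.6% of tested genes, 47.2% of the higher and 54.1% of the lower.

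Hepatocyte markers and cell cycle genes, the only gene lists counted, lay on opposite sides of the tested genes' median of 13 CG dinucleotides. The 14 hepatocyte markers with a promoter had a median of 2 CG dinucleotides, 5 held TATAAA and 2 held a GC box. CCAAT stood in 8 of them, or 57.1%, against 40.3% of tested genes. The 21 genes of the cell cycle list with a promoter had a median of 19.5, 1 held TATAAA, 16 held a GC box and 17, or 81.0%, held CCAAT. No test was made of these shares.

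Alb, albumin, the main plasma protein, read 3.11, 2.89, 2.47 and 2.93 on control arrays 1 to 4. All 4 arrays lay far above 0 and close together, for a mean log2 ratio of 2.85 ± 0.27 (SD, n = 4), 7.21-fold, with an adjusted p of 4.16e-05. Ttr, transthyretin, a carrier of thyroid hormone and of retinol-binding protein, read 2.69, 2.99, 2.45 and 2.35, again with no array near 0. Its mean was 2.62 ± 0.28 (SD, n = 4), 6.15-fold, with an adjusted p of 5.40e-05.

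Apoa1, the main protein of high-density lipoprotein, read 2.40, 3.08, 2.15 and 1.95. Array 2 was the highest and array 4 the lowest, but the order did not bring any array near 0, and the mean was 2.39 ± 0.49 (SD, n = 4) with an adjusted p of 1.28e-04. Cyp3a11, a cytochrome P450 that oxidises many drugs and steroids, was higher but looser. It read 2.99, 4.47, 3.25 and 2.29, with array 2 well above the rest and array 4 lowest. Its mean was 3.25 ± 0.91 (SD, n = 4), 9.51-fold, with an adjusted p of 2.44e-04.

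The other markers ranged widely. Trf, transferrin, the iron carrier, read 2.79, 3.23, 2.52 and 3.00. Hpx, hemopexin, which binds free heme, read 1.03, 3.49, 2.70 and 1.43, so arrays 2 and 3 stood far above arrays 1 and 4. Ambp, the precursor of alpha-1-microglobulin and bikunin, read -0.18, 2.62, 0.99 and 1.57 and passed only narrowly, with an adjusted p of 0.0273. Array 1 lay below 0. The call was lost without array 2, 3 or 4, at means of 0.79, 1.34 and 1.14. Tdo2, tryptophan dioxygenase, was the marker that did not pass, with a mean of 0.36.

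**Figure D2:**
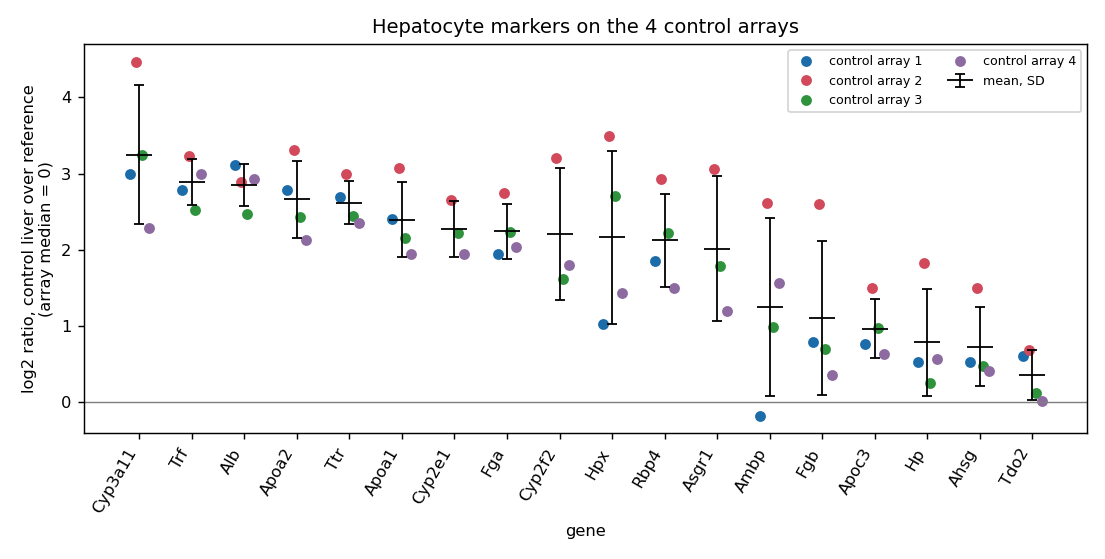
Log2 ratio of control liver over reference (vertical axis, array median at 0) for the 18 tested hepatocyte markers (horizontal axis); points are the 4 arrays, bars the mean ± SD. Array 2 is the highest point for most markers, and Ambp on array 1, at -0.18, is below 0.

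On array 2 the hepatocyte genes stood higher than on the other 3. Averaged over the 15 markers with 4 values, the log2 ratio was 1.64, 2.66, 1.73 and 1.54 on arrays 1 to 4. The 404 genes at least 2-fold higher averaged 1.45, 1.96, 1.57 and 1.47, while the 192 genes at least 2-fold lower averaged -1.43, -1.22, -1.24 and -1.48. So array 2 read further from 0 than the others on the high side and not on the low side. These genes were chosen with array 2 among the values. The part of depth, spot quality or the mouse in this was not tested.

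Without array 2, 13 of the 15 markers that could still be tested were higher, 0 were lower and their median was 1.86. Of the 404 genes, 291 could be tested on the other 3 arrays, and 264 of them were again at least 2-fold higher.

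**Figure D3:**
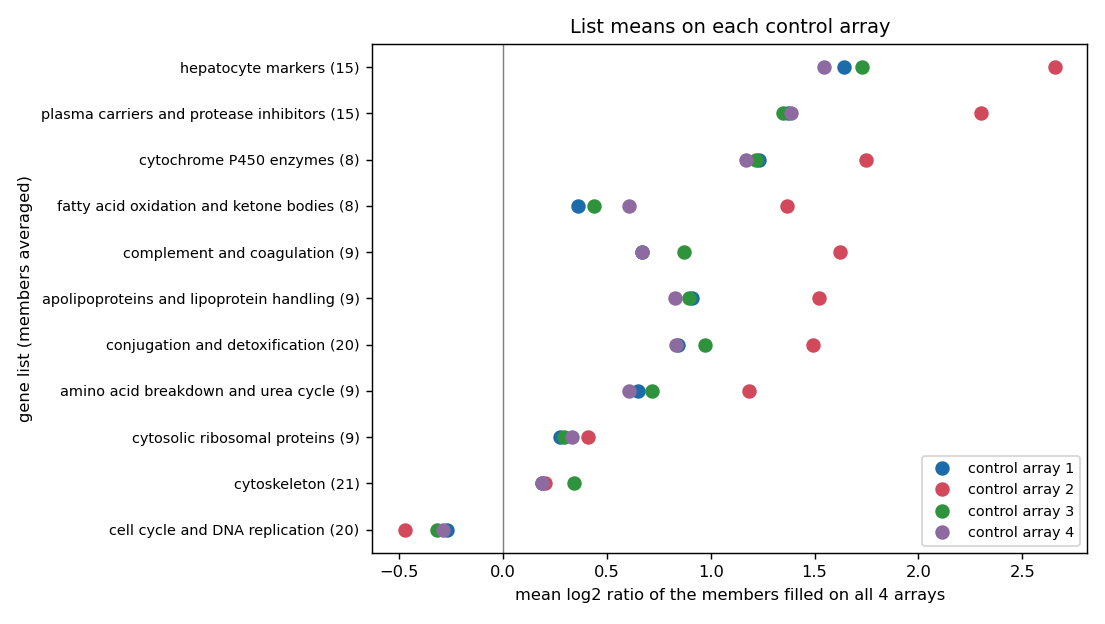
Mean log2 ratio (horizontal axis) of each gene list (vertical axis, with the number of members filled on all 4 arrays) on each control array. Array 2 reads highest for the 8 liver function lists at the top, at 2.66 for hepatocyte markers, and lowest, at -0.47, for cell cycle genes.

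Secreted proteins were high in liver as a group. Of the 18 plasma carriers and protease inhibitors tested, of 32 on the array, 15, or 83.3%, were higher and 0 were lower. The median was 1.35. Over all genes tested 30% were higher and 28.2% lower, the background for this list and every list below. Mup3 and Mup5, major urinary proteins that bind pheromones, stood beside albumin. Mup3 read 2.78, 2.80, 2.36 and 2.50, and Mup5 read 3.39, 3.15, 2.24 and 2.64. Both were high on all 4 arrays, but the Mup genes are near copies of each other and may share signal, so which of them was measured is uncertain. Serpina6, corticosteroid-binding globulin, was much lower, at 0.62 ± 0.12 (SD, n = 4), and still passed. Itih3, Igfbp2 and Igfals did not pass, at means of 0.02, 0.04 and 0.16.

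Apolipoproteins split by member. Of 13 tested, of 25 on the array, 10, or 76.9%, were higher, 2, or 15.4%, were lower and the median was 1.03. Apoe, a ligand for lipoprotein receptors, read 2.39, 3.33, 2.06 and 2.17, and Apoa2, the second protein of high-density lipoprotein, averaged 2.66 ± 0.51 (SD, n = 4). Apoc4 was scattered, from 0.66 on array 1 to 3.45 on array 2. On the other side of 0 were Saa2, an acute-phase serum amyloid A, at -0.99, -0.74, -1.24 and -0.95, and Pon2, a paraoxonase found in many tissues, at -0.35, -0.50, -0.62 and -0.77. Both read below 0 on every array.

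Complement and clotting genes were mostly higher. Of 15 tested among 42 on the array, 11, or 73.3%, were higher, 1, or 6.67%, was lower and the median was 1.02. Fga, the fibrinogen alpha chain, read 1.95, 2.75, 2.23 and 2.04. Plg, plasminogen, read 1.77, 3.44, 2.39 and 1.60, and F9, clotting factor IX, was lower but tighter at 0.70, 0.98, 0.82 and 0.84. The member that was lower was C1qc, a chain of complement C1q made by macrophages, which read -0.97, -0.73, -0.56 and -1.16. Without array 2 the list's median was 0.61, over 9 genes.

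Drug-metabolising enzymes were high with clear exceptions. Among 14 tested cytochrome P450 genes, 8, or 57.1%, were higher, all of them at least 2-fold. Another 2, or 14.3%, were lower, and the median was 1.43. The background is 30% higher and 28.2% lower. Cyp2e1, which oxidises ethanol and small solvents, had values on 3 arrays of 2.66, 2.22 and 1.94. Cyp2c29 read 2.66, 3.01, 1.51 and 2.37 and Cyp2d22 read 1.67, 2.12, 1.73 and 1.10. Both belong to multigene families whose members may share signal. The lower members were Cyp46a1, the cholesterol 24-hydroxylase of brain, at a mean of -0.997 on 3 arrays, and Cyp4f13, at -0.36.

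Among conjugating and detoxifying enzymes 17 of 25, or 68%, were higher, 3, or 12%, were lower and the median was 0.98. Glutathione transferases led. Gsta3 read 2.52, 3.37, 2.26 and 1.91, and Gstm1 read 1.96, 3.00, 2.04 and 1.88, with array 2 apart from 3 close values. Gstk1, the mitochondrial and peroxisomal form, was far tighter at 1.25, 1.27, 1.38 and 1.20. The 3 lower members were Gstz1, which is also an enzyme of tyrosine breakdown, at -0.75, Nqo1, a quinone reductase, at -0.97 on 3 arrays, and Adh5, an alcohol dehydrogenase present in all tissues, at -0.48. Members of the Gstm, Ces1 and Aldh1a families may share signal.

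Amino acid breakdown and the urea cycle followed the same side. Of 25 tested genes 15, or 60%, were higher, 1, or 4%, was lower and the median was 0.80. Hpd, an early enzyme of tyrosine breakdown, read 2.07, 2.96 and 2.47 on the 3 arrays with a value. Mat1a, the liver form of methionine adenosyltransferase, read 2.72, 2.95, 1.68 and 1.56, so arrays 1 and 2 stood above arrays 3 and 4. Ass1, argininosuccinate synthase of the urea cycle, ranged from 0.87 to 3.22 with a mean of 2.04. Gstz1 was the member that was lower. Bckdha and Agxt did not pass, at means of 0.01 and 0.13.

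**Figure D4:**
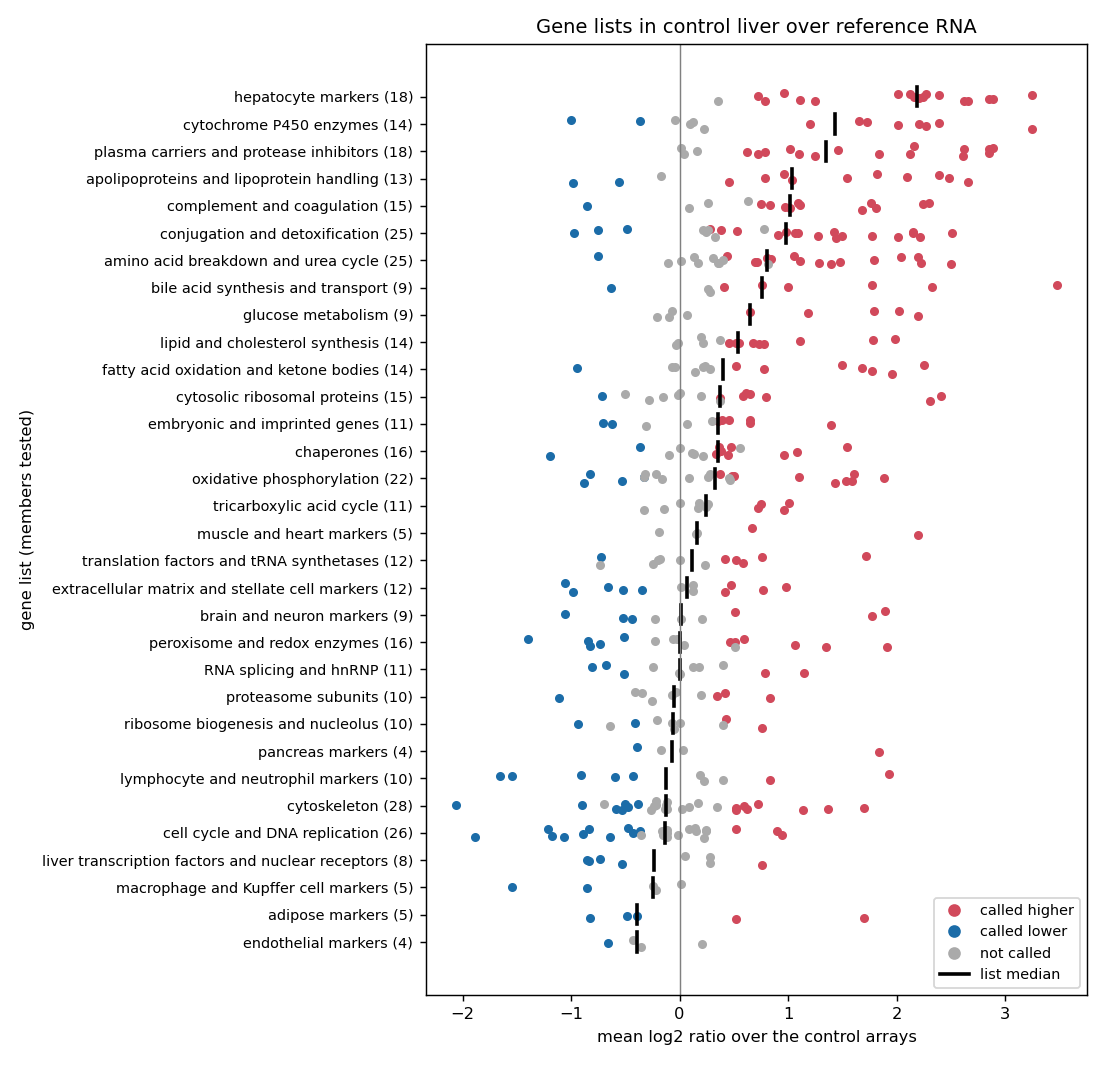
Mean log2 ratio of control liver over reference for the tested members of each gene list; points are genes, coloured by call, and the bar is the list's median. Hepatocyte markers have the highest median, 2.18, and the 4 endothelial and 5 adipose markers are at -0.39.

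Energy and lipid genes were less uniform. In glucose metabolism 5 of 9 tested genes, or 55.6%, were higher, 0 were lower and the median was 0.65. The background is 30% higher and 28.2% lower. Eno3, the beta enolase known from muscle, read 1.73, 3.16, 2.31 and 1.59. Fbp1, the fructose bisphosphatase of gluconeogenesis, read 2.98, 1.68 and 1.42, and Pygl, liver glycogen phosphorylase, read 2.74, 1.96 and 0.68, on arrays 2 to 4. Pfkl, Gys2, Gbe1 and Pklr did not pass, with means from -0.21 to 0.07. The median was 0.62 without array 1, -0.02 without array 2, 0.15 without array 3 and -0.04 without array 4. Fbp1 and Pygl could not be tested without array 2, 3 or 4. Those medians are therefore over the 7 members with 4 values.

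Fatty acid oxidation and ketone body genes had a median of 0.40. Of 14 tested, 7, or 50%, were higher and 1, or 7.14%, lower, against 30% and 28.2% of all genes. Acaa2, the last enzyme of the mitochondrial beta-oxidation spiral, read 1.42, 3.12 and 2.23 on arrays 1 to 3. Slc27a2 and Slc27a5, fatty acid and bile acid CoA ligases of liver, averaged 1.96 and 1.77. Decr1, a reductase needed for unsaturated fatty acids, was the lower member and was even across arrays, at -1.05, -0.90, -0.77 and -1.06. Cpt1a and Cpt2, the carnitine transferases that carry fatty acids into mitochondria, did not pass, at means of 0.22 and -0.04.

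Of 14 tested genes of lipid and cholesterol synthesis 9, or 64.3%, were higher, 0 were lower and the median was 0.53. Scd1, the stearoyl-CoA desaturase, read 2.25, 2.62, 1.54 and 1.55. It stood well above Fasn, fatty acid synthase, which read 0.37, 0.65, 1.20 and 0.49. In bile acid synthesis and transport 6 of 9, or 66.7%, were higher, 1, or 11.1%, was lower and the median was 0.76. Abcg5, a sterol transporter into bile, read 3.03, 2.38, 3.47 and 5.05, with array 4 the highest and array 2 the lowest. Its partner Abcg8 averaged only 0.26 on 3 arrays and did not pass. Abcc2, the bilirubin glucuronide pump, was the lower member at -0.63 ± 0.49 (SD, n = 4).

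Regulators of liver genes were split, with 4 means above 0 and 4 below. Of 8 tested liver transcription factors and nuclear receptors, of 34 on the array, 1, or 12.5%, was higher and 4, or 50%, were lower. The background is 30% higher and 28.2% lower. The list's median was -0.24. Leaving out arrays 1 to 4 in turn gave -0.52, -0.43, 0.14 and -0.14. Members with values on 3 arrays, such as Nr1i2 on arrays 2 to 4, dropped out when any of those was left out. These medians are therefore over changing sets of genes. The 6 members with 4 values averaged -0.35, 0.285, -0.29 and -0.305 on arrays 1 to 4. Nr1h4, the bile acid receptor FXR, was higher and read 0.55, 1.43, 0.76 and 0.30. Cebpb and Cebpd, leucine zipper factors of the acute-phase response, were lower, at -0.83 and -0.73. Mlxipl, the carbohydrate response factor ChREBP, averaged -0.53, and Nr1i2, the xenobiotic receptor PXR, -0.86. Cebpa, the main C/EBP factor of hepatocytes, did not pass: it read 1.02 on array 2 and -0.30, -0.19 and -0.31 on the others.

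Among 22 tested genes of oxidative phosphorylation 9, or 40.9%, were higher, 4, or 18.2%, were lower and the median was 0.33. The background over all genes is 30% higher and 28.2% lower. Atp5c1, the gamma subunit of ATP synthase, read 1.11, 1.42, 1.95 and 1.88. Cyc1, cytochrome c1, averaged 1.10, and its 10 rows with values on at least 3 arrays, all of 1 accession, spanned 0.81 to 1.30. Lower were Ndufb4 at -0.83, Atp5g1 at -0.88, Atp5g2 at -0.33 and Cycs, cytochrome c itself, at -0.53. In the tricarboxylic acid cycle 4 of 11, or 36.4%, were higher and 0 lower, led by Mdh1 and Mdh2, the malate dehydrogenases, at 1.01 and 0.72. The oxidative phosphorylation median was 0.14, 0.05, 0.17 and 0.37 without array 1, 2, 3 or 4, over the members that could still be tested.

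Genes that every cell uses scattered around 0. Of 15 cytosolic ribosomal proteins 7 were higher and 1, Rps3, was lower at -0.72. The highest, Rplp1 at 2.41 and Rpl13 at 2.31, stood far from the list's median of 0.37. That median was 0.48, 0.18, 0.01 and 0.27 without array 1, 2, 3 or 4. Members with values on 3 arrays, Rplp1 among them, dropped out when any of those was left out. The 9 members with 4 values averaged 0.27, 0.41, 0.30 and 0.33 on arrays 1 to 4. Ribosomal proteins have many processed copies, so their spots may share signal. Chaperones had 8 higher and 2 lower of 16, where P4hb and Calr of the endoplasmic reticulum averaged 1.55 and 1.08, but Pdia6, of the same compartment, read -1.04, -1.12, -1.21 and -1.41. For proteasome subunits the count was 3 higher and 1 lower of 10, for splicing factors 2 and 3 of 11, for ribosome biogenesis 2 and 2 of 10, and for translation factors 5 and 1 of 12. Over these 6 lists the share of members higher, 18.2% to 50%, lay on both sides of the background of 30%, and the share lower, 6.67% to 27.3%, below the background of 28.2%.

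Peroxisome, redox and iron genes were split, with 6 of 16, or 37.5%, higher, 5, or 31.25%, lower and a median of 0.01. These shares lie near the 30% higher and 28.2% lower of all genes tested, so nothing is read from them. Hamp, the liver hormone hepcidin that limits iron uptake, averaged 1.35 on 3 arrays, and Tfr2, a liver sensor of transferrin, read 0.16, 2.01, 1.09 and 0.99. Gpx3, the glutathione peroxidase of plasma, made largely in kidney, was the lowest and read -1.40, -1.34, -1.16 and -1.68. Gpx4, the peroxidase that acts on lipids in membranes, was higher, at 1.91 on 3 arrays.

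Genes of the cell cycle had more lower than higher members. Of 26 tested, of 98 on the array, 10 were lower, 4 of them at least 2-fold, 3 were higher and 13 did not pass, for a median of -0.14. The share lower, 38.5%, stands beside a background of 28.2%. Leaving out arrays 1 to 4 in turn gave medians of -0.23, -0.23, -0.11 and -0.36. Mcm10, which helps to start replication forks, read -2.10, -1.37, -1.48 and -2.60. All 4 arrays were well below 0, with arrays 1 and 4 the lowest, for a mean of -1.89 ± 0.57 (SD, n = 4), 3.70-fold lower, with an adjusted p of 4.01e-04.

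Cdc20, an activator of the anaphase-promoting complex, read -1.17, -1.29, -0.88 and -1.52, and Cdk1, the kinase that drives mitosis, read -0.94, -1.42, -0.82 and -1.52. Ccnd1, cyclin D1, averaged -1.06 ± 0.27 (SD, n = 4). Ttk, Kif11, Orc1, Foxm1, Cks1b and Prc1 were also lower, at means of -0.36 to -0.89. Mybl2, a cell cycle transcription factor, went the other way and was very even at 1.00, 0.91, 0.92 and 0.95, with Hmgb2 at 0.90 and Ccnd3 at 0.52 also higher. Mki67, Mcm3 and Mcm7 did not pass, with means of 0.23, 0.24 and 0.08.

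Other liver cells were thinly covered. Of 25 macrophage and Kupffer cell markers on the array, 15, Adgre1, Clec4f, Cd68 and Marco among them, had no value on any control array and 5 could be tested. Ptprc, the leukocyte antigen CD45, averaged -1.55 on 3 arrays and C1qc -0.85, both lower, and 0 were higher. The share lower, 40% of these 5, stands beside a background of 28.2%. Among 25 endothelial markers 4 could be tested, Pecam1, Lyve1 and Clec4g had no value, and Kdr, Tie1 and Cdh5 did not pass. The endothelial median, -0.39, was -0.39, -0.34, -0.25 and -0.16 without array 1, 2, 3 or 4. Tie1 and Cdh5 have no value on array 1. Without array 2, 3 or 4 the median is therefore that of Kdr and Ehd3 alone. Ehd3, or 25% of the 4, was lower at -0.66 but not without array 1 or 4, at -0.56 and -0.48. Of 3 bile duct markers, Sox9 at -0.73 and Krt7 at -0.38, or 66.7%, were lower and Cldn7 at 0.65 was higher. With so few members tested, nothing is read from the shares of these cell type lists. Krt7 lost its call without array 1, 3 or 4, at -0.31, -0.38 and -0.34.

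Lymphocyte and neutrophil markers divided. Of 10 tested, 5, or 50%, were lower and 2, or 20%, higher, against 28.2% and 30% of all genes tested. The lower ones included Thy1 at -1.66 and Cd247, a T cell receptor chain, at -0.91. Csf3r, the receptor for granulocyte colony-stimulating factor, was higher and read 1.72, 2.54, 1.72 and 1.74, and Ncr1, of natural killer cells, averaged 0.83 on 3 arrays. The T cell genes Cd3e and Cd3d did not pass, at 0.40 and 0.22. For the extracellular matrix and stellate cell list 4 of 12, or 33.3%, were higher and 5, or 41.7%, lower. The background is 30% higher and 28.2% lower. Pdgfrb, the receptor of stellate cells, read -0.82, -1.15, -0.87 and -1.09, Col1a2 averaged -0.52, and Dcn, decorin, 0.42.

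Cytoskeletal genes were split as all genes were, with 8 of 28 higher and 7 lower. S100a6, a calcium-binding protein abundant in dividing cells, was the lowest, at -2.17, -1.93 and -2.08 on 3 arrays. Capg, a cap of actin filaments, read 1.56, 2.24, 1.65 and 1.35. Actb, beta-actin, often used as a stable control gene, was anything but stable here. It read -1.72, -0.33, 0.87 and -1.60 and did not pass, with a mean of -0.70 ± 1.22 (SD, n = 4) and an adjusted p of 0.176. Without array 3 it was lower, at -1.22 with an adjusted p of 0.0131.

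Some markers of other organs were also high in liver, and others were lower or not called. Pnpla2, the triglyceride lipase of fat, read 1.63, 1.89, 1.75 and 1.52. S100b and Rtn1, known from glia and neurons, averaged 1.77 and 1.89, with Rtn1 at 0.59 on array 2 against 2.16 to 2.48 on the others. Cela3b, a pancreatic elastase, read 2.05, 2.10, 1.95 and 1.26, while Ctrb1 and Ctrl, abundant pancreatic proteases, averaged -0.17 and 0.03 and did not pass. Nanog, a stem cell factor, averaged 1.39 on 3 arrays, in an embryonic and imprinted list with 6 of 11 higher and 2, Meg3 and Sall4, lower. The pancreas, brain, muscle, testis and adipose lists together did not stand on 1 side: 1 of 4, 3 of 9, 2 of 5, 1 of 2 and 2 of 5 were higher, and 1, 3, 0, 0 and 3 were lower. Over all genes tested 30% were higher and 28.2% lower, and nothing is read from these short lists. Whether these spots hold the genes they are named for was not tested.

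Of the 15 highest named genes with a value on all 4 arrays, 8 stood in a list above. The limit to 4 values and to rows with a symbol leaves out some genes with means as high, Ncln at 3.71 on 3 arrays among them, named here after its value was seen. Highest of all was Adamtsl4, a matrix protein related to ADAMTS proteases, which read 4.00, 5.03, 4.45 and 5.69. All 4 arrays were far above 0, for a mean of 4.79 ± 0.73 (SD, n = 4), 27.7-fold, with an adjusted p of 6.39e-05. Pacc1, a proton-activated chloride channel, read 2.78, 4.13, 3.38 and 4.72, and Phlda3, a p53 target, read 4.20, 3.45, 3.24 and 2.96. Gdap2 averaged 3.25, Copz2, a subunit of the COPI vesicle coat, 3.19, Fshb, the pituitary follicle-stimulating hormone subunit, 2.72 and Khdrbs3, an RNA-binding protein, 2.61. These names are the platform's, old ones included, and were not checked against spot sequences.

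At the other end, Slc25a30, a mitochondrial carrier, read -3.19, -2.45, -2.42 and -3.17, for a mean of -2.81 ± 0.43 (SD, n = 4), with an adjusted p of 7.68e-05. Cdadc1, a cytidine deaminase, read -3.23, -2.36, -2.08 and -3.36, and Ybx2, a germ cell RNA-binding protein, read -2.21, -2.08, -2.02 and -2.81. Arrays 1 and 4 were the 2 lowest for each of these 3 genes. Also among the 15 lowest named genes with 4 values were Setd2, a histone H3 methyltransferase, at -2.17, Strap at -1.89, Copb1, another COPI subunit, at -1.88, Lman2, a lectin of the secretory pathway, at -1.72, Anpep, aminopeptidase N, at -1.65, and Slc25a37, the mitochondrial iron importer mitoferrin, at -1.60. Of these 15, which all have 4 values, Mcm10 is in a list above. The COPI coat thus had a subunit at each end, Copz2 and Copb1.

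The spread between arrays was largest in a few genes, and with 1 array per mouse the mouse and the array cannot be told apart. Ppp1r3c, a glycogen-targeting subunit of protein phosphatase, had the largest SD, 1.58, and read -0.22, 2.60, -0.51 and -0.82. The 3 other arrays were below 0 and array 2 far above, so the gene did not pass with 4 arrays. It was lower without array 2, at -0.52 with an adjusted p of 0.0153. Tbc1d10b, a GTPase-activating protein, read 2.27, -0.75, 1.07 and 1.75, and was called higher without array 2, at 1.70. Ugt2b1, a glucuronosyl transferase, read 0.17, 3.00, 1.94 and 0.66, and its call was lost without array 3, at 1.28. The most even called genes were Eif6, a ribosome assembly factor, at -0.73, -0.73, -0.71 and -0.71, Adam17, a sheddase, at -0.31 to -0.35, and Rgl1, at -0.72 to -0.78. Adam17, though even, is so near 0 that it was not called without array 1 or 3, at -0.32 and -0.33. Omp, olfactory marker protein, stood at 0.44 to 0.50.

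Rows of the same symbol did not always read alike. Of 61 genes with at least 2 rows filled on 3 or more arrays, 25 had rows more than 1 apart on the log2 scale and 30 had rows of opposite sign. In the 3 genes whose rows share 1 accession, Cyc1, Eif4a2 and Top1, rows were at most 0.56 apart. In the other 58, with rows of different accessions, the median range was 0.83 and the largest 3.28, for Tiam2. Psmd11, called higher at 0.35, averages rows at -0.20 and 0.89 and was not called without array 3, at 0.29. Among the named genes above, the values of those with 1 row therefore have no second row behind them.

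The same genes were then set against the high-fat and fasted livers, to see how far these levels were shared. Control minus the mean of the 2 other groups passed for 290 of 3558 genes, 8.15%, with 116 higher in control, 3.26%, and 174 lower, 4.89%. These counts depend on the setting: they were 28 and 96 with arrays scaled alike, 38 and 179 after quantile normalisation, and 67 and 71 without control array 1 or 61 and 76 without control array 3. High-fat array 4 was left out because its correlation with the control arrays was -0.03 to 0.01, against 0.69 to 0.86 for the other 6 arrays. Sides of 0 were mostly shared: of the 404 high genes, 310 of the 314 with high-fat values and 344 of the 349 with fasted values lay above 0. Of the 192 low genes it was 176 of 177 and 180 of 180 below 0. Sizes were less alike: of 299 high genes that could be compared, 80 were higher in control and 6 lower, and of 169 low genes 0 were higher and 10 lower. All groups share the reference, and these genes were chosen on the control arrays, so nothing is read from those counts.

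Cyp3a11 differed most among the 4 leading markers. Its control mean of 3.25 stood against 1.27 in high-fat and 1.38 in fasted liver, a difference of 1.93 with an adjusted p of 0.0137. Ttr stood at 2.62 against 2.01 and 1.24, a difference of 0.99 with an adjusted p of 0.0194, and Apoa1 at 2.39 against 1.39 and 1.49, a difference of 0.95 or, without array 2, 0.73. For Alb the means were 2.85, 2.16 and 2.08, and the difference of 0.73 did not pass, with an adjusted p of 0.0775. Cyp2c29 was also higher in control, by 1.63, and Gsta3, by 1.22. Copz2 was lower in control, by 1.80 on the log2 scale.

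Over the 14 hepatocyte markers that could be compared, 3 were higher in control, 0 were lower and the median difference was 0.51. High-fat arrays were narrower than the others, with a scaled median absolute deviation of 0.39 to 0.58 against 0.64 to 0.77 in control and 0.65 to 0.73 in fasted liver. With every array brought to equal spread the median difference fell to 0.17 with 1 marker higher, and without control array 2 it was 0.22. Ttr and Apoa1 each lost their call in 3 of 7 other settings, and Cyp3a11 and Cyp2c29 kept theirs in all 7.

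**Figure D5:**
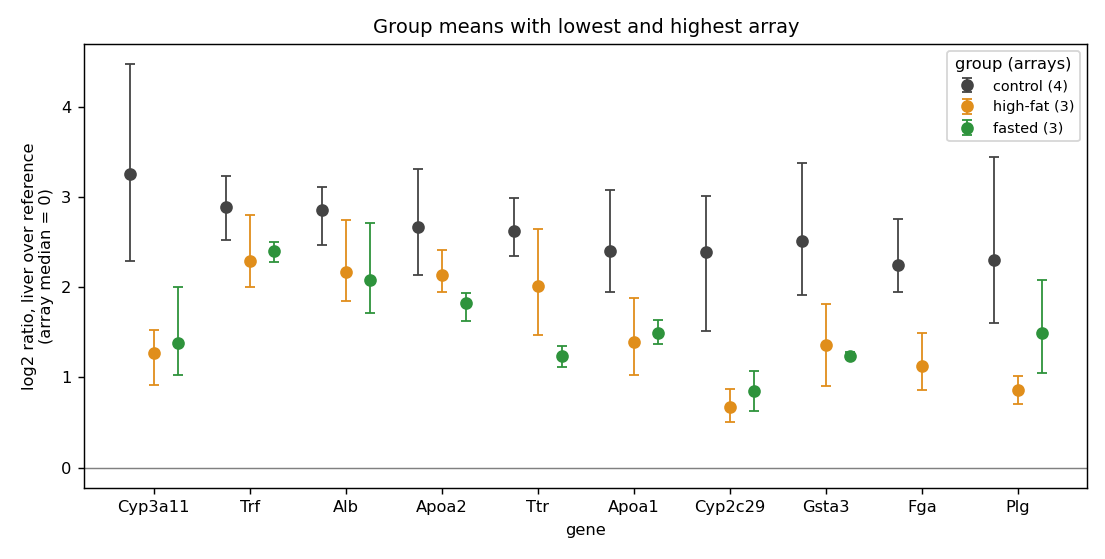
Mean log2 ratio over reference (vertical axis, array median at 0) in control, high-fat and fasted liver, with bars from the lowest to the highest array. The genes are chosen liver genes high in control, and genes that went the other way, such as Copz2, are not shown. Plg and Gsta3 have 2 high-fat values, Cyp2c29 and Gsta3 have 2 fasted values, and Fga has 0 fasted values. Cyp3a11 stands at 3.25 in control and at 1.27 and 1.38 in the other groups.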

How the data were processed

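The authors deposited 1 log ratio per spot and array, taken here as log2, with liver in Cy5 and the reference in Cy3 per the labels. None of the sources used here states the background correction, normalisation, scanner or rule for empty cells. Spots were named from the platform's annotation: 14718 rows have 1 symbol, 1 has several and 2561 have none; 14445 matched the current gene table and 0 symbols changed. The members, gene lists and tests were chosen with earlier results of these data known.

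Each array was centred on its median, rows of the same symbol were averaged, rows with no symbol were kept singly, and genes with a value on at least 3 of 4 control arrays entered limma (version 3.58.1, under R 4.3.3; mean against 0, empirical Bayes, two-sided, Benjamini-Hochberg over all 3834 genes, threshold 0.05). Named genes are the 15 highest and 15 lowest called genes with 4 values of the same sign, up to 4 members of each list with the smallest p, the 4 markers, and the 6 genes with the largest SD and the 6 called genes with the smallest; other list members named in the text were chosen after their values were seen. The comparison with other groups used 10 arrays and at least 2 values per group. The labels make each array 1 mouse, and no batch is named. The fit was tested on simulated data of 3834 genes: 82 of 100 genes changed by 1 and 98 of 100 changed by 2 were recovered, with 16 false calls. Alternatives changed the centring, scaling, filter, averaging, spread model, array weights, threshold and the arrays used. When an array was left out, genes then short of 3 values dropped out, so list medians could be over fewer genes. Promoters come from RefSeq, GRCm38.p6.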

Additional observations from a re-analysis of the deposited data

Results flagged for a closer look

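On a single array, a value stood apart from 3 close ones, by Dixon's ratio, in 6 of 125 named genes with 4 values. Chance alone gives such a gap in about 1 in 20 groups. Array 2 was apart for Gstm1 at 3.00, Csf3r at 2.54 and Rtn1 at 0.59. Array 4 was apart for Ndufb4 at -0.61, array 3 for Aqp7, a glycerol channel, at -1.05, and array 1 for Lipe, hormone-sensitive lipase, at -0.71. Of 32 gene lists 6 had an array apart in their mean: array 2 for hepatocyte markers at 2.66, plasma carriers and protease inhibitors at 2.30, apolipoproteins at 1.52, cytochrome P450 enzymes at 1.75 and liver transcription factors at 0.28, and array 3 for the cytoskeleton at 0.34. Lists share members, so these are not separate cases.

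In the comparison of control with the mean of high-fat and fasted livers, 27 named genes passed limma's test of that difference. Over 7 other settings each, the call was kept in 100 cases and lost in 88, and 1 difference changed sign. Cyp3a11, Cyp2c29, Eif4a2, Eif6 and Aqp7 kept it in all 7. Higher in control were Cyp3a11 by 1.93, Cyp2c29 by 1.63, Rplp1 by 1.27, Gsta3 by 1.22, Rpl13 by 1.18, Eif4a2 by 1.01, Ttr by 0.99, Phlda3 by 0.97, Apoa1 by 0.95, Fshb by 0.88, Tuba4a by 0.77, Capg by 0.71, Kyat1 by 0.61, Eif2b1 by 0.54, S100b by 0.52 and Pnpla2 by 0.43. Lower in control, with the difference on the log2 scale, were Copz2 at -1.80, Eln at -1.20, Ctrl at -0.85, Kdr at -0.65, Aqp7 at -0.60, Eif6 at -0.57, Cd163 at -0.55, Ndufb4 at -0.53, Aifm2 at -0.47, Pdgfrb at -0.47 and Meg3 at -0.41. The genes were named for their control values, so their number is not set against the background of 8.15%.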

How the results depend on the processing

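No paired analysis was possible because 1 group is set against a common reference and replicate numbers only name mice. Of 145 named genes called, 128 passed under each setting that tested them; the 17 others were Mlxipl, Psmd2, Psmd11, Psma4, Mphosph10, Nhp2, Fbln2, Ehd3, Krt7, Gcg, Meg3, Hsd3b1, Lipe, Ugt2b1, Ambp, Adam17 and Aifm2. With deposited values, 506 genes were lower, 623 at least 2-fold higher and 86 at least 2-fold lower. With values required on all 4 arrays, 113 were at least 2-fold lower. Leaving out the genes with the lowest 20% of mean ratios, which by construction removes low genes, left 285 lower and 0 at least 2-fold lower. Tested against a size of 1, 130 were higher and 32 lower. Leaving out each array gave 834 to 963 higher, 724 to 802 lower, 282 to 357 at least 2-fold higher and 126 to 160 at least 2-fold lower. In the comparison with the other groups, genes higher in control numbered 50 with all 11 arrays, 28 with scaled arrays, 38 with quantile normalisation and 61 to 119 leaving out each control array. Genes lower in control numbered 59 with all 11 arrays, 96 with scaled arrays, 179 with quantile normalisation and 71 to 190 leaving out each array. Ppp1r3c ranged from -0.52 without control array 2 to 0.62 without array 4, and the control difference of Pnpla2 turned to -0.011 with quantile normalisation. The causes were not tested. The limits are 4 mice, 1 dye orientation, an unknown log base, and empty cells of unknown rule, which keep 25.4% of symbols in the test.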
